A study of Mus musculus with 16 samples.

Results

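The slow fibre sarcomere genes are 7 genes that encode the contractile proteins of type I muscle fibres: Myh7 (the slow myosin heavy chain), Myl2 and Myl3 (its regulatory and essential light chains), Tnnt1, Tnni1 and Tnnc1 (the troponin subunits T, I and C) and Tpm3 (slow tropomyosin). They were found by their symbols: every probe set whose single gene symbol in the platform annotation is one of the 7 was taken, which gave 11 of the 7729 probe sets and 7 of the 4929 genes of the table. Myl3 and Tpm3 have 3 probe sets each and the other genes 1 each. A probe set is a group of short oligonucleotides on an Affymetrix mouse array that together report 1 transcript signal, given here on the log2 scale.

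All mice were female C57BL/6 animals aged 7 weeks, an age that the series calls presymptomatic. The SOD1-G93A mice carried a human SOD1 transgene with the G93A substitution, which models amyotrophic lateral sclerosis (ALS), a disease of motor neurons that leaves muscle denervated. The promoter of the transgene is not given in the sources used here. Both the gastrocnemius (in the calf) and the triceps (behind the humerus) came from each of 4 SOD1-G93A mice and each of 4 non-transgenic (NTg) mice, so there are 16 arrays in 4 groups of 4: SOD1-G93A gastrocnemius, NTg gastrocnemius, SOD1-G93A triceps and NTg triceps. The same replicate number within a genotype was taken to mark the same mouse.

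A skeletal muscle mixes slow, oxidative type I fibres with several kinds of fast fibres, and each kind builds its sarcomere from its own set of isoforms. Slow motor neurons keep the slow set switched on through calcium, calcineurin, NFAT and MEF2 signalling, and repressors such as Sox6 hold it down in fast fibres. In SOD1-G93A mice the motor neurons of fast fibres are known to lose their contacts before those of slow fibres. Myl2, Myl3 and Tnnc1 are also genes of the ventricular heart muscle, and Tpm3 has further products outside the sarcomere. In pieces of whole muscle, fewer slow fibres and less of these transcripts per fibre cannot be told apart.

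Array medians lay between 7.10 and 7.26. On 3 triceps arrays (SOD1-G93A replicate 2 and NTg replicates 1 and 2) the creatine kinase gene Ckm was at 12.76, 12.84 and 13.02, below the other 13 arrays, and the results that rest on them are also given without them. As a check of the labelled tissue, 8 of the 9 listed skeletal muscle fibre genes are in the table, and their 9 probe sets all passed the filter on dim signals described next. None of the 6 listed cardiac muscle genes is in the table under a single symbol, and Myh6 shares probe set 1448554_s_at with Myh7. Mouse Sod1 was not called between genotypes, with differences of 0.18 in gastrocnemius and 0.28 in triceps (SE 0.27 each, limma's adjusted p = 0.999 and 0.994), and since the probe set may or may not detect the transgene's message, the genotype labels could not be checked by it.

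The muscles were compared over the 8 gastrocnemius and the 8 triceps arrays with limma, a linear model fitted across all 4637 probe sets whose mean over the 16 arrays exceeded 6.75, the 40th percentile. This model did not pair the muscles of a mouse, and it gave every group the same spread. Calls were made at 0.05 after Benjamini-Hochberg adjustment over these 4637. All 11 slow sarcomere probe sets passed the filter, 9 of them with a triceps mean below the filter level, so those passed through gastrocnemius. Of the 11, 10 were called higher in gastrocnemius, covering all 7 genes, while 2.11% of all tested probe sets were called higher. With no filter on dim probe sets these were again 10 of 11, against a background of 1.26%. In each of the 10 the lowest gastrocnemius array lay above the highest triceps array, which held for 1.25% of all tested probe sets. These 10 took the ranks 1 to 10 of 4637 by size of the difference, over both genotypes and within either genotype alone. The median difference of the 11 was 4.90, against -0.00 for all tested probe sets.

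**Figure D1:**
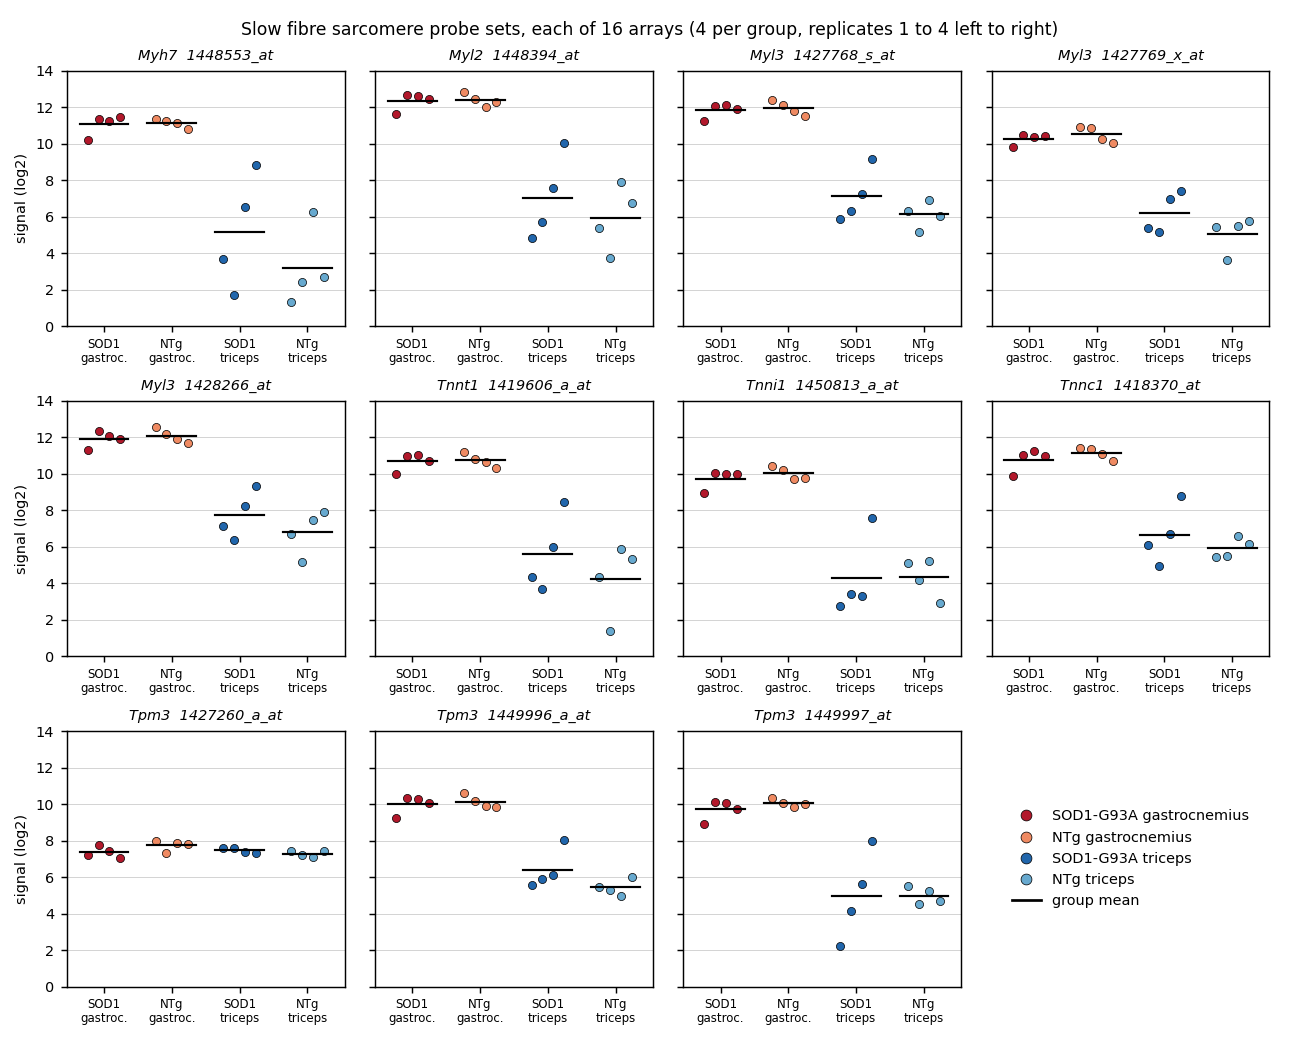
Signal (log2, vertical axis) of the 11 slow sarcomere probe sets on each of the 16 arrays, a panel per probe set. Points are arrays, with replicates 1 to 4 from left to right within the gastrocnemius of SOD1-G93A mice, NTg gastrocnemius, SOD1-G93A triceps and NTg triceps, and lines are group means. In 10 panels all gastrocnemius points lie above all triceps points, and in the panel of Tpm3 1427260_a_at the groups lie at one level.

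Myh7, the motor of the slow sarcomere, was far higher in gastrocnemius, by an amount that depends on how its dimmest triceps signals are treated. Its probe set 1448553_at was at 10.19, 11.33, 11.22 and 11.45 in the gastrocnemius of SOD1-G93A mice (replicates 1 to 4), 11.33, 11.25, 11.11 and 10.78 in the gastrocnemius of NTg mice, 3.66, 1.70, 6.54 and 8.81 in the triceps of SOD1-G93A mice and 1.30, 2.40, 6.28 and 2.67 in the triceps of NTg mice. The gastrocnemius arrays lay within a narrow band, whereas the triceps arrays were spread from the dimmest signals of an array to above its median, and the muscles did not overlap. The mean was 11.08 ± 0.41 in gastrocnemius and 4.17 ± 2.72 in triceps (SD, n = 8 each), a difference of 6.91 (SE 0.80, 95% interval 5.22 to 8.60), or 120-fold (limma's adjusted p = 2.77e-05). In NTg triceps replicate 1 no other value of the array was lower, and in SOD1-G93A triceps replicate 4 Myh7 stood above 82.0% of the table. At the low end such signals have no fixed order, and with all values under 5 set to 5 the difference was 5.25. As deposited the difference of Myh7 was the largest of the 11, and with that floor the difference of Myl2 was larger, at 5.70.

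Within a mouse, the excess of Myh7 in gastrocnemius over triceps was 6.54, 9.63, 4.69 and 2.63 in SOD1-G93A replicates 1 to 4 and 10.03, 8.85, 4.83 and 8.11 in NTg replicates 1 to 4. All 8 mice were above 0. Within SOD1-G93A the difference was 5.87 (SE 1.14, adjusted p = 0.0131) and within NTg 7.95 (SE 1.14, adjusted p = 5e-04), both by limma. The first of these calls was lost without SOD1-G93A triceps replicate 1 (adjusted p = 0.0651) and without SOD1-G93A gastrocnemius replicates 2 (0.0518) or 3 (0.0551). A second probe set of this region, 1448554_s_at, is annotated to both Myh7 and Myh6, the fast heavy chain of the heart, and so is no member. Its signal was 6.18 higher in gastrocnemius (SE 0.61, limma's adjusted p = 4.74e-06 with no filter), with a range of 8.47 to 10.23 on the gastrocnemius arrays and 1.74 to 7.19 on the triceps arrays.

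The 250 bases before each listed transcript start were searched for 4 motifs, because 10 of the 11 probe sets moved together between the muscles. The motifs were the E-box CANNTG (bound by MyoD-family factors), MCAT (CATTCC, bound by TEAD factors), a MEF2-type motif (CTA and TAG with any 4 bases between them) and the TATA box TATAAA, each on both strands. No motif overlapped another in the windows printed. All 7 genes matched the RefSeq promoter table (GRCm38.p6), with 11 starts in all. The 2 windows of Myh7 overlap each other, as do the 2 of Tnni1, so the 11 windows are not separate stretches. E-box letters stood in 11 of the 11 windows, against 66.2% of the 32851 windows of the table. MCAT letters stood in 3 of 11 (12.6% of the table), TATAAA in 2 of 11 (12.4%) and the MEF2-type letters in 0 of 11 (3.20%). Of 8 windows of the fast fibre counterparts named below, 6 held E-box letters, 4 MCAT, 3 TATAAA and 0 the MEF2-type letters. A match is a description of letters and not of a site, and a missing match says only that these letters are not in this window. Windows of 5 genes follow with their values. That of Myh7 belongs to the upstream of its 2 listed starts, chr14:54994627-54994876 on the minus strand, with 1 MCAT and 1 E-box match in capitals.

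Myh7: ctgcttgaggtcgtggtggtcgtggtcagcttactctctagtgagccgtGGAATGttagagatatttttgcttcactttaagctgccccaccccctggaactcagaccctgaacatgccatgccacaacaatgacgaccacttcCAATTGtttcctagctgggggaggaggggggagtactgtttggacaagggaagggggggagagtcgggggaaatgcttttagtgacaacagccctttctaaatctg

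The light chains followed. Myl2, the regulatory light chain that clasps the lever arm of slow and ventricular myosin, was at 11.61, 12.68, 12.59 and 12.42 in the gastrocnemius of SOD1-G93A mice, 12.82, 12.45, 11.99 and 12.29 in the gastrocnemius of NTg mice, 4.85, 5.68, 7.56 and 10.03 in the triceps of SOD1-G93A mice and 5.37, 3.72, 7.89 and 6.75 in the triceps of NTg mice (1448394_at). Again the gastrocnemius arrays stood close together and SOD1-G93A triceps replicate 4 stood highest among triceps. The difference was 5.87 (SE 0.62), or 58.7-fold, with limma's adjusted p = 1.05e-05, and 5.70 with values under 5 set to 5. Within a mouse it ranged from 2.40 to 8.73.

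Myl3, the essential light chain of slow and ventricular myosin, was read by 3 probe sets. By 1428266_at it was at 11.32, 12.37, 12.10 and 11.93 in the gastrocnemius of SOD1-G93A mice, 12.58, 12.21, 11.91 and 11.69 in the gastrocnemius of NTg mice, 7.12, 6.35, 8.22 and 9.36 in the triceps of SOD1-G93A mice and 6.72, 5.17, 7.45 and 7.89 in the triceps of NTg mice. The order of the arrays resembled that of Myl2, with the highest triceps value again in SOD1-G93A replicate 4 and the lowest in NTg replicate 2. The difference between the muscles was 4.73 (SE 0.39, adjusted p = 4.3e-07) by this probe set, 5.25 (SE 0.36, adjusted p = 6.9e-08) by 1427768_s_at and 4.73 (SE 0.34, adjusted p = 7.34e-08) by 1427769_x_at, all from limma. The 3 probe sets gave one direction in all 8 mice, and 2 of them share a design sequence. Myl3 is 1 of 3 members with a single listed start. Its window, chr9:110763428-110763677 on the plus strand, holds 1 E-box and 2 MCAT matches, one on each strand, in capitals.

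Myl3: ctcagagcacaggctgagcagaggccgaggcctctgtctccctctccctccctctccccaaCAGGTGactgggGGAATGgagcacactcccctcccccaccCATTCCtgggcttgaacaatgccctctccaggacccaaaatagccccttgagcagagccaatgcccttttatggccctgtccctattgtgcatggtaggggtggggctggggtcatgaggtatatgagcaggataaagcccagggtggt

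The troponin subunits, which make the thin filament respond to calcium, repeated the pattern. Tnnt1, the subunit that ties troponin to tropomyosin, was at 9.99, 11.00, 11.06 and 10.72 in the gastrocnemius of SOD1-G93A mice, 11.17, 10.82, 10.63 and 10.32 in the gastrocnemius of NTg mice, 4.34, 3.67, 6.01 and 8.47 in the triceps of SOD1-G93A mice and 4.37, 1.41, 5.86 and 5.34 in the triceps of NTg mice (1419606_a_at). The lowest triceps array was NTg replicate 2, one of the 3 with low Ckm. Tnnt1 was 5.78 higher in gastrocnemius (SE 0.62), or 55.0-fold, with limma's adjusted p = 1.27e-05. This size rests on dim triceps signals, 4 of them under 5, and with values under 5 set to 5 the difference was 5.004.

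Tnni1, the inhibitory subunit, was at 8.93, 10.05, 9.97 and 10.00 in the gastrocnemius of SOD1-G93A mice, 10.45, 10.22, 9.73 and 9.78 in the gastrocnemius of NTg mice, 2.73, 3.40, 3.32 and 7.60 in the triceps of SOD1-G93A mice and 5.12, 4.19, 5.22 and 2.92 in the triceps of NTg mice (1450813_a_at). Here SOD1-G93A triceps replicate 4 stood alone, with the other 3 SOD1-G93A triceps arrays below 3 of the 4 NTg ones. The muscles differed by 5.58 (SE 0.54), or 47.7-fold, with limma's adjusted p = 3.64e-06. With values under 5 set to 5 the difference was 4.52, so the fold against such dim triceps signals is not fixed.

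Tnnc1, the calcium-binding subunit, was at 9.90, 11.02, 11.26 and 10.96 in the gastrocnemius of SOD1-G93A mice, 11.43, 11.36, 11.11 and 10.71 in the gastrocnemius of NTg mice, 6.09, 4.94, 6.72 and 8.77 in the triceps of SOD1-G93A mice and 5.46, 5.51, 6.61 and 6.16 in the triceps of NTg mice (1418370_at). Its triceps values were less spread than those of Myh7, and its lowest gastrocnemius array lay 1.13 above its highest triceps array. The difference was 4.68 (SE 0.39), or 25.7-fold, with limma's adjusted p = 4.3e-07. Of the troponin genes, Tnnt1 and Tnnc1 have a single listed start. The window of Tnnt1, chr7:4515976-4516225 on the minus strand, holds 1 E-box match and, nearer the start, TATAAA. That of Tnnc1, chr14:31208062-31208311 on the plus strand, holds 2 E-box matches and 1 MCAT match, all in capitals.

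Tnnt1: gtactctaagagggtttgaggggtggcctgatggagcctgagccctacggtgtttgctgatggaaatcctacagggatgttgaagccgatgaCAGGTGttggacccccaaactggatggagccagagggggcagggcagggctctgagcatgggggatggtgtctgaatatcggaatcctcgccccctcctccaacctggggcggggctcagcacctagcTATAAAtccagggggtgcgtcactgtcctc

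Tnnc1: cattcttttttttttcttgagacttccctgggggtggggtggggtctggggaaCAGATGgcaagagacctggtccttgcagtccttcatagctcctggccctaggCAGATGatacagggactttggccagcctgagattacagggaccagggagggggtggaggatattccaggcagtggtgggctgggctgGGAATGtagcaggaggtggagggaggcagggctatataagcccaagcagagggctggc

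Tpm3, whose slow product lies along the thin filament and gates myosin binding, was the member whose probe sets disagreed. By 1449996_a_at it was at 9.24, 10.35, 10.30 and 10.08 in the gastrocnemius of SOD1-G93A mice, 10.59, 10.18, 9.88 and 9.84 in the gastrocnemius of NTg mice, 5.57, 5.89, 6.12 and 8.05 in the triceps of SOD1-G93A mice and 5.47, 5.32, 4.98 and 5.98 in the triceps of NTg mice. This was the pattern of the other genes, with a difference of 4.13 (SE 0.29), or 17.6-fold (limma's adjusted p = 6.9e-08). The probe set 1449997_at, designed on the same transcript, gave 4.90 (SE 0.53, adjusted p = 1.32e-05), and 4.34 with values under 5 set to 5.

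The probe set 1427260_a_at, designed on another Tpm3 transcript, was at 7.23, 7.74, 7.41 and 7.04 in the gastrocnemius of SOD1-G93A mice, 7.95, 7.32, 7.86 and 7.79 in the gastrocnemius of NTg mice, 7.59, 7.59, 7.38 and 7.31 in the triceps of SOD1-G93A mice and 7.40, 7.19, 7.07 and 7.41 in the triceps of NTg mice. The 2 muscles overlapped, and the difference of 0.18 (SE 0.13, 95% interval -0.10 to 0.45) was not called (limma's adjusted p = 0.425, rank 1061 of 4637). It was above 0 in 6 of 8 mice. Within NTg it was 0.46 (SE 0.18, adjusted p = 0.297) and within SOD1-G93A -0.11 (SE 0.18, adjusted p = 0.841), both by limma. This probe set also had a small spread among the mice of a group, with SDs from 0.14 to 0.30. RefSeq lists 2 starts of Tpm3 that lie 6870 bases apart. Both windows, chr3:90072401-90072650 and chr3:90079271-90079520 on the plus strand, hold 1 E-box match each, in capitals, and none of the other motifs. Which start feeds which probe set was not tested.

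Tpm3, first start: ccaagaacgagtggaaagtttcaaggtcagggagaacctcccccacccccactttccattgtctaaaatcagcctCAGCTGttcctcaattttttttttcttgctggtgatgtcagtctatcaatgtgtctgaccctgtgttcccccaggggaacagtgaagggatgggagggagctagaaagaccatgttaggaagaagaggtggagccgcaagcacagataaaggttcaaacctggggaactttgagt

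Tpm3, second start: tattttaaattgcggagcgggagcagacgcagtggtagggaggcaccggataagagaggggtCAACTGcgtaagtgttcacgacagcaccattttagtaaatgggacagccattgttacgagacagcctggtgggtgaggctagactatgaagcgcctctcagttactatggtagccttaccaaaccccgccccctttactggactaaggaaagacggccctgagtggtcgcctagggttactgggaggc

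**Figure D2:**
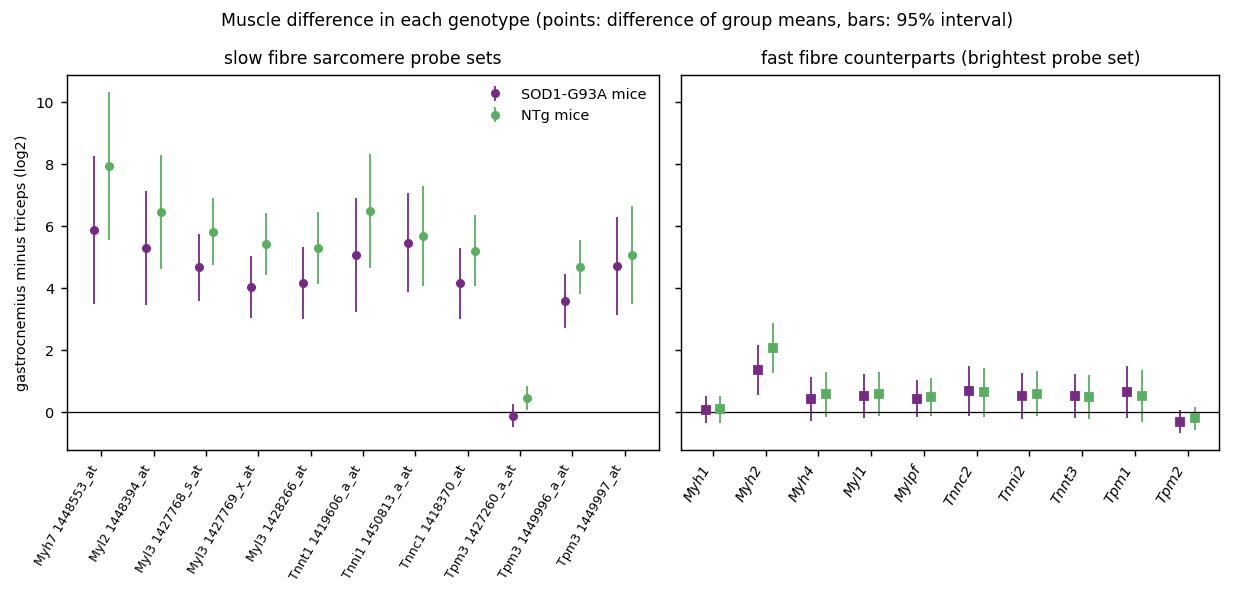
Difference between gastrocnemius and triceps (log2, vertical axis) in SOD1-G93A and in NTg mice for the 11 slow sarcomere probe sets (left) and for the brightest probe set of 10 fast counterparts (right). Points are differences of group means and bars 95% intervals. In both genotypes 10 slow probe sets lie well above 0, while among the fast counterparts Myh2 alone was called over both genotypes.

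The muscle difference was present in each genotype. Within SOD1-G93A mice 10 of 11 slow sarcomere probe sets were called higher in gastrocnemius, against 0.819% of all tested probe sets, with a median difference of 4.67 over the 11. Within NTg mice the count was also 10 of 11, against 1.14%, with a median of 5.43. The 2 comparisons take their group means from separate arrays, but the model gave both the same estimate of the spread. For Myh7 the SE was 1.14 in each. The calls in the 2 genotypes are therefore not independent of each other. The difference between the 2 comparisons is the difference of the genotype effects, for which 0 of 11 members and 0 of 4637 probe sets were called. Without the 3 triceps arrays with low Ckm, 10 of 11 were called over both genotypes and the median was 4.76.

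**Figure D3:**
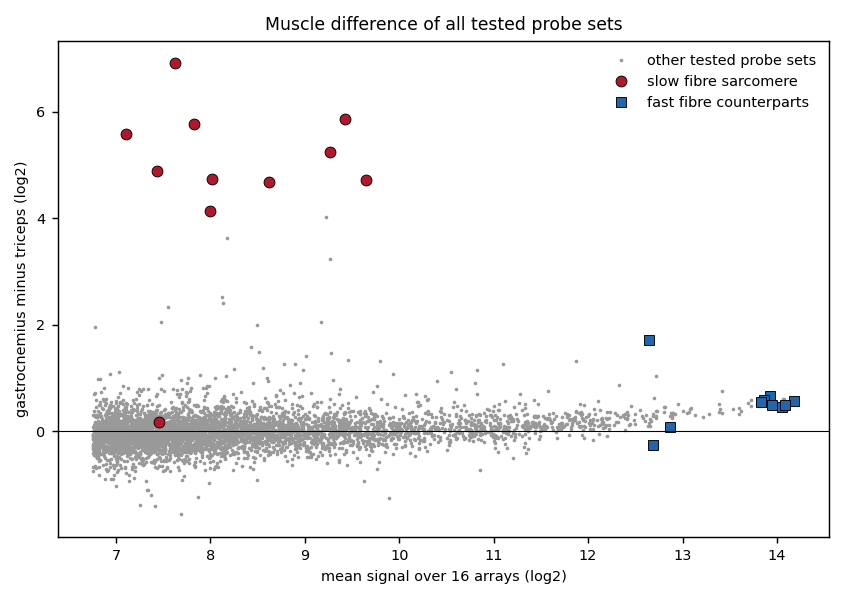
Difference between gastrocnemius and triceps over both genotypes (log2, vertical axis) against the mean signal over the 16 arrays (log2, horizontal axis) for all 4637 tested probe sets. The 11 slow sarcomere probe sets are circles and the brightest probe sets of 10 fast counterparts are squares. Of the circles, 10 lie above every other point, and 1 (Tpm3 1427260_a_at) lies at 0.18.

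Most fast fibre counterparts of the members were not called between the muscles. For each slow gene the genes listed as its counterparts were taken (Myh1, Myh2 and Myh4, Mylpf, Myl1, Tnnt3, Tnni2, Tnnc2, Tpm1 and Tpm2), each with its brightest probe set. Of these 10 genes 1 was called, and none was called lower. Myh2, the heavy chain of fast oxidative type IIA fibres, was 1.71 higher in gastrocnemius (SE 0.27, 3.28-fold, limma's adjusted p = 8.99e-04). Its values were 13.39, 13.44, 13.28 and 13.49 in the gastrocnemius of SOD1-G93A mice, 13.53, 13.50, 13.67 and 13.69 in the gastrocnemius of NTg mice, 12.01, 10.63, 12.87 and 12.66 in the triceps of SOD1-G93A mice and 12.06, 10.71, 11.02 and 12.33 in the triceps of NTg mice, so that the muscles did not overlap. The other 9 had differences between -0.26 (Tpm2) and 0.66 (Tnnc2), with limma's adjusted p from 0.162 to 0.765. The brightest signals had a shift in common: all 33 tested probe sets with a mean above 13, 7 of the 10 fast counterparts among them, were above 0, with a median of 0.47. Without the 3 triceps arrays with low Ckm that median was 0.04. Myh4, the heavy chain of the fastest fibres, was at 0.50 with all arrays and 0.01 without those 3, and Myh2 at 1.71 and 1.41.

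Other genes of the slow and oxidative fibre were higher in gastrocnemius too, by less than the 10 called slow sarcomere probe sets. Of 17 such genes 13 are in the table with 21 tested probe sets, and 17 of these probe sets (12 genes) were called higher and 0 lower. Atp2a2, the calcium pump of the slow sarcoplasmic reticulum and of the heart, came next after those 10, at 4.02 (SE 0.30, 16.2-fold, limma's adjusted p = 1.05e-07) by its brightest probe set, while its other tested probe sets gave 3.62 and 0.73. Myoz2, a Z-disc protein of slow fibres and heart that binds calcineurin, was at 3.24 (SE 0.20, adjusted p = 1.95e-08). Ankrd2 (2.52) and Csrp3 (2.41), which take part in the stretch response of the sarcomere, followed.

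Smaller differences were called for Pdlim1 (1.50), an adaptor of the actin cytoskeleton, for Ldhb (1.33), the lactate dehydrogenase subunit of oxidative tissue, and for Fhl1 (1.32), a LIM-domain protein of the sarcomere. They were also called for Lmod2 (1.18), which nucleates actin filaments, Casq2 (1.06), the calcium store of slow fibres and heart, Mb (1.03), which encodes myoglobin, Fabp3 (0.91), a fatty acid carrier, and Cryab (0.57), a small heat shock protein. Cd36, a fatty acid transporter, was not called by any of 3 probe sets. Among 34 genes listed as regulators of fibre type, 16 are in the table and 13 were tested with 22 probe sets. Tbx15, a factor of glycolytic fibres, was called lower in gastrocnemius, at -0.66 (SE 0.12, limma's adjusted p = 0.00331). Sox6, the repressor of slow genes, was at -0.45 (adjusted p = 0.079) and Rcan1, whose transcription follows calcineurin activity, at 0.50 (adjusted p = 0.101). Actc1, the cardiac actin gene and the only listed cardiac or developmental isoform in the table under a single symbol, was at 0.27 (limma's adjusted p = 0.397).

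Markers of other cells moved with the muscle difference in part. Of 6 listed Schwann cell genes, Mbp and Pmp22, which encode myelin proteins, are in the table, and all 4 of their tested probe sets were called higher in gastrocnemius (Mbp at 2.34 by its brightest probe set, Pmp22 at 1.26). The summed signal of the list's 7 probe sets (log2 of the sum of linear signals) lay between 9.88 and 11.48 in the gastrocnemius of SOD1-G93A mice, 10.93 and 11.31 in the gastrocnemius of NTg mice, 9.27 and 9.64 in the triceps of SOD1-G93A mice and 9.12 and 9.38 in the triceps of NTg mice. Of 5 listed tendon genes 3 are in the table, and 1 of 7 tested probe sets was called higher (Fmod, 0.66), with sums between 10.91 and 11.69 in the gastrocnemius of SOD1-G93A mice, 11.17 and 11.77 in the gastrocnemius of NTg mice, 10.81 and 11.28 in the triceps of SOD1-G93A mice and 10.83 and 11.19 in the triceps of NTg mice. Of 5 listed smooth muscle genes 3 are in the table, and 1 of 2 tested probe sets was called (Myl9, 0.76), with sums between 9.28 and 9.96, 9.43 and 9.84, 8.78 and 9.71, and 8.94 and 9.34 in the same 4 groups. None of the 5 tested probe sets of listed adipocyte and immune genes was called. No level of these log2 signals marks a transcript as absent, so absence of these cells cannot be read from the values. The part of these cells in the muscle difference was not tested.

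The second question was whether SOD1-G93A mice differed from NTg mice in these genes before symptoms. In gastrocnemius 0 of 11 slow sarcomere probe sets were called, against 0% of all tested probe sets, and 0 of 11 had an unadjusted p under 0.05, against 2.22%. The differences lay between -0.38 and -0.04, so 0 of 11 were above 0 (47.1% of all tested), with a median of -0.17 against -0.01 for all tested probe sets. The genotypes overlapped in 11 of 11, while 2.70% of all tested probe sets had no overlap. Without SOD1-G93A gastrocnemius replicate 1 the median was 0.04. In the shared model the spread of the triceps arrays widens these intervals. With gastrocnemius arrays alone, an alternative chosen after the data were seen, the difference of Myh7 was -0.07 with an SE of 0.23 in place of 1.14, and 0 of 11 were called or had an unadjusted p under 0.05.

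In triceps the differences went the other way and were larger, and none passed. Of 11 probe sets 0 were called, against 0% of all tested probe sets. Values above 0 were found for 9 of 11, against 54.4% of all tested, with a median of 0.97 against 0.02. Myh7 was at 2.02 (SE 1.14, 95% interval -0.38 to 4.41), Tnnt1 at 1.38 (SE 0.88) and Myl2 at 1.10 (SE 0.88). Each had limma's adjusted p = 0.994. With values under 5 set to 5 these differences were 1.02, 0.82 and 0.81. Probe set 1448554_s_at, annotated to both Myh7 and Myh6, was at 0.21 (SE 0.87, no filter) in this comparison. An unadjusted p under 0.05 was reached by 2 of 11, against 2.54% of all tested, namely Myl3 1427769_x_at at 1.15 and Tpm3 1449996_a_at at 0.97, both with limma's adjusted p = 0.994. With triceps arrays alone, again an alternative chosen after the data were seen, 0 of 11 had an unadjusted p under 0.05, and the SE of Myh7 was 1.52 in place of 1.14, so the intervals from the shared model are narrower than those from triceps by itself. Tnni1 (-0.10) and Tpm3 1449997_at (-0.00) were not above 0. In 11 of 11 the genotypes overlapped, while 0.949% of all tested probe sets had no overlap. The upper limits of the 95% intervals ran from 1.49-fold for Tpm3 1427260_a_at to 21.2-fold for Myh7. Without the 3 triceps arrays with low Ckm the median was 0.68. Of the 21 tested probe sets of the other slow genes 0 were called in triceps and 19 were above 0, with a median of 0.16, and Myoz2 was at 0.68 (SE 0.28, limma's adjusted p = 0.994). Of the 15 of the fast counterparts 0 were called and 14 were above 0, with a median of 0.19.

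**Figure D4:**
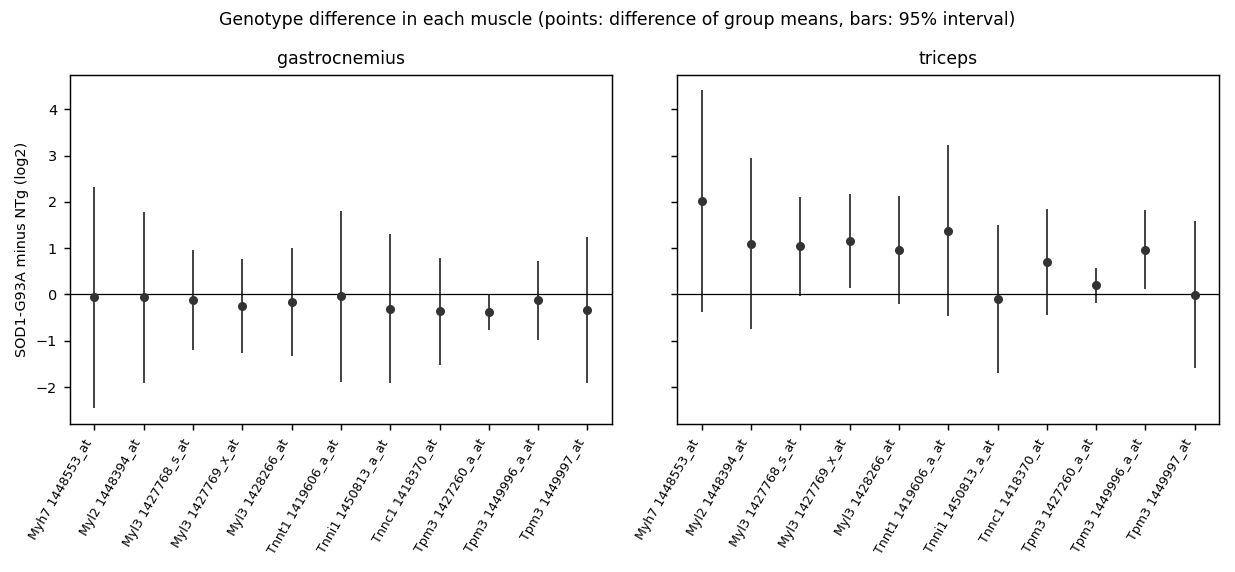
Difference between SOD1-G93A and NTg (log2, vertical axis) in gastrocnemius (left) and triceps (right) for the 11 slow sarcomere probe sets. Points are differences of group means and bars 95% intervals from the model over all 16 arrays. In gastrocnemius all 11 points lie between -0.38 and -0.04, and in triceps 9 of 11 lie above 0, with wide bars.

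Averaged over both muscles, with the mouse as a random block, 0 of 11 were called (0% of all tested), and 0 of 11 had an unadjusted p under 0.05 (1.83% of all tested). The median was 0.42, with 8 of 11 above 0 (51.3% of all tested). The genotype difference in gastrocnemius minus that in triceps had a median of -1.12, with 0 of 11 above 0 (43.8% of all tested). None was called (0% of all tested), and 1 of 11, Tpm3 1427260_a_at, was at -0.57 with an unadjusted p under 0.05 (limma's adjusted p = 0.999), against 1.85% of all tested. The comparisons in this paragraph use the same arrays as those within each muscle.

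The median of the triceps differences moved most with 2 arrays, SOD1-G93A replicate 4 and NTg replicate 2. SOD1-G93A triceps replicate 4 was the highest of the 8 triceps arrays in 10 of 11 slow sarcomere probe sets, while it was the highest in 11.8% of all tested probe sets. The mean of the 7 genes, each by its brightest probe set, was 4.91, 4.52, 6.36 and 8.73 in the triceps of SOD1-G93A mice and 4.83, 3.96, 6.33 and 5.39 in the triceps of NTg mice. The first 3 SOD1-G93A values thus lie within or close to the NTg range, and the fourth lies above it. In both genotypes replicates 1 and 2 lie below replicates 3 and 4, as they do for Ckm in triceps, and the labels name no batch. Without replicate 4 the median difference between genotypes in triceps was 0.36, and Myh7 was at 0.80. Without NTg triceps replicate 2, one of the 3 arrays with low Ckm, it was 0.44, with Myl2 at 0.36, Tnnt1 at 0.44 and Myh7 at 1.76. Over both muscles the median was 0.12 without the first of these arrays and 0.15 without the second, against 0.42 with all. In triceps the largest rise of the median was to 1.32, without SOD1-G93A triceps replicate 2, where Myh7 was at 3.17. The array median of 7.13 and the Ckm value of 14.50 on SOD1-G93A triceps replicate 4 lay within the range of the other triceps arrays.

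Other slow genes on that array were high in part. Atp2a2 was at 9.37 there, against 6.71, 6.61 and 7.86 on the other SOD1-G93A triceps arrays and 6.89, 6.53, 7.18 and 6.57 on the NTg triceps arrays. Myoz2 was at 8.81, against 7.73, 7.34 and 8.04 in the other SOD1-G93A triceps and 7.76, 6.52, 7.30 and 7.62 in the triceps of NTg mice. In triceps, SOD1-G93A replicate 3 was highest in 8 of the 21 tested probe sets of the other slow genes. NTg replicate 1 was highest in 5. Over all tested probe sets their shares were 12.7% and 10.8%. The array named above, SOD1-G93A triceps replicate 4, was highest in 6 of the 21, against 11.8% of all tested. Ankrd2, at 7.06, and Csrp3, at 7.41, were not the highest of the triceps arrays, whose range was 5.82 to 8.11 for Ankrd2 and 5.97 to 7.98 for Csrp3. The myelin gene Mbp was at 6.18 there, within the triceps range of 5.63 to 6.84.

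In gastrocnemius a single array stood low. SOD1-G93A gastrocnemius replicate 1 was the lowest of the 8 gastrocnemius arrays in 10 of 11 slow sarcomere probe sets, against 10.8% of all tested probe sets, and NTg gastrocnemius replicate 1 was the highest in 10 of 11, against 11.4%. The mean of the 7 genes was 10.17, 11.26, 11.21 and 11.08 in the gastrocnemius of SOD1-G93A mice and 11.48, 11.21, 10.91 and 10.77 in the gastrocnemius of NTg mice. Apart from the first SOD1-G93A array, the genotypes lay within the same range.

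**Figure D5:**
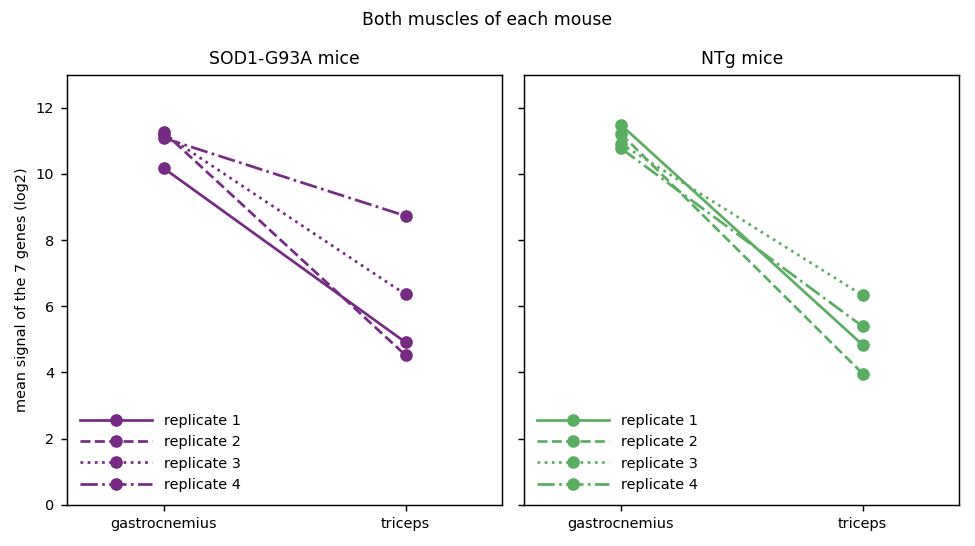
Mean signal of the 7 slow sarcomere genes (log2, vertical axis) in gastrocnemius and triceps of each mouse, with SOD1-G93A mice on the left and NTg mice on the right. Each line joins the 2 muscles of a mouse. Gastrocnemius points lie between 10.17 and 11.48 and triceps points between 3.96 and 8.73, with the highest triceps point in SOD1-G93A replicate 4.

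The slow sarcomere genes had larger SDs among the mice of a group than most tested probe sets. The median SD of the 11 probe sets was 0.49 in the gastrocnemius of SOD1-G93A mice, 0.35 in the gastrocnemius of NTg mice, 1.61 in the triceps of SOD1-G93A mice and 0.97 in the triceps of NTg mice, against 0.22, 0.20, 0.24 and 0.32 for all tested probe sets in the same groups. In triceps 25 of the 44 SOD1-G93A values and 35 of the 44 NTg values lay under the filter level of 6.75, where a MAS5 log2 signal is unsteady, and 0 of 44 did so in either gastrocnemius group. The part of dimness in the triceps spread was not tested. In gastrocnemius the spread was above that of 92.0% of tested probe sets in SOD1-G93A and 86.1% in NTg at the median.

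The members, apart from Tpm3 1427260_a_at, varied together from array to array. In deviations from the group means over the 16 arrays, the 45 pairs of the 10 probe sets other than Tpm3 1427260_a_at had a Pearson correlation between 0.51 and 0.97, with a median of 0.79. With Tpm3 1427260_a_at included, the 55 pairs ran from -0.39 to 0.97, with a median of 0.75. In triceps alone the lowest was -0.86. Pairs of probe sets of one gene and the shared arrays contribute to these correlations. By the same measure the probe sets most like the mean of the 7 genes, over the 16 arrays, were 2 of Atp2a2 (0.94 and 0.93), followed by Uqcrq (0.90) and Cox8b (0.89), which encode parts of the respiratory chain, Atp5h (0.88), a subunit of the ATP synthase, Scp2 (0.87), a lipid transfer protein, Clcn3 (0.85), a chloride transporter of endosomes, and Mdh1 (0.84), the cytosolic malate dehydrogenase. Spearman's rho of these 8 lay between 0.71 and 0.92. These are descriptions over arrays that all probe sets share.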

How the data were processed

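Gastrocnemius and triceps RNA of 4 SOD1-G93A and 4 NTg mice was measured on 16 arrays. The deposited table holds log2 signals of 7729 probe sets, and MAS5 is the only tool in the submitters' processing notes. The base of the logarithm was read from the values, from -0.77 to 14.81. How signals were scaled and probe sets selected is not given here. Values were used as deposited. Gene symbols came from the platform annotation, and 330 probe sets with several symbols and 346 with none were not named. No genome build belongs to the table.

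The model was limma 3.58.1 (R 4.3.3) with 4 group means and eBayes with an intensity trend, on 4637 probe sets above the 40th percentile, and the comparison over both muscles had the mouse as a random block (consensus correlation 0.18). The 8 mice gave both muscles, per the series' design text; that equal numbers within a genotype mark 1 mouse is a reading of the titles. In deviations from the group means the same-numbered muscles of a genotype correlated at 0.14 to 0.39, and in 8 of 8 cases best with their own number. Same-numbered arrays of different genotypes were not treated as pairs, since not every such correlation was over 0.1. The fit was tested on simulated data. The members, the gene lists and the 3 triceps arrays named were chosen with earlier results of these data known. The named genes are the members, their fast counterparts, Sod1, listed slow genes called (or the 3 of smallest p), and listed regulators and markers. The brightest probe set stands for a gene where 1 value is given. Probe set 1448554_s_at and the genes given for single arrays were picked with their values in view. The number of arrays limits the precision. Alternatives covered the filter, quantile normalization, a floor of 5, the trend, blocks, single muscles and left-out arrays.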

Additional observations from a re-analysis of the deposited data

Results flagged for a closer look

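Of 44 tests for a value far from the other 3 of its group (11 probe sets in 4 groups), 3 stood out. This is close to the share of about 1 in 20 that chance gives, and the tests share arrays and genes. Tnni1 was at 8.93 in SOD1-G93A gastrocnemius replicate 1, far below the other 3 arrays, and at 7.60 in SOD1-G93A triceps replicate 4, far above them. Myl3 1427769_x_at was at 3.63 in NTg triceps replicate 2, far below the others. The first pair are the arrays on which most members were lowest and highest within their muscle, and the last is one of the 3 arrays with low Ckm.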

How the results depend on the processing

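Under every alternative run, the count of slow sarcomere probe sets called stayed within 1.5 times the count given for all 7 comparisons, and the median difference kept its sign, except in gastrocnemius between the genotypes without SOD1-G93A replicate 1. Over both genotypes the muscle difference had a median of 4.62 to 5.39 when 1 array at a time was left out, 5.04 after quantile normalization, 4.68 with a floor of 5 and 4.76 without the 3 triceps arrays with low Ckm. With the filter at the 60th percentile only 8 slow sarcomere probe sets were tested, and all 8 were called. With the replicate block the median was 4.90 with 10 called, and the block changed no call of any comparison. The block was the mouse for comparisons of muscles and the replicate number for comparisons of genotypes. Same-numbered arrays of the 2 genotypes correlated, in deviations from the group means, at 0.00065 to 0.22 in gastrocnemius and 0.034 to 0.37 in triceps, and 2 of 8 arrays in each muscle correlated best with their own number. Leaving out 1 array gave medians of 3.97 to 5.34 within SOD1-G93A, with 9 to 10 called, and 5.07 to 5.65 within NTg. For SOD1-G93A against NTg it gave medians of -0.32 to 0.04 in gastrocnemius, 0.36 to 1.32 in triceps, 0.12 to 0.61 over both muscles and -1.59 to -0.49 for the difference between the muscles, with 0 called throughout and a lowest adjusted p of 0.692 (limma, any alternative).

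Some uncalled genotype differences changed sign. In gastrocnemius, leaving out 1 array gave -0.20 to 0.22 for Myh7, -0.19 to 0.18 for Myl2, -0.26 to 0.070 and -0.32 to 0.036 for 2 Myl3 probe sets, -0.18 to 0.19 for Tnnt1 and -0.25 to 0.12 for Tpm3 1449996_a_at, each above 0 without SOD1-G93A replicate 1. In triceps it gave -1.21 to 0.41 for Tnni1, -0.018 to 1.26 for Tnnc1 and -0.999 to 0.91 for Tpm3 1449997_at, each lowest without SOD1-G93A replicate 4. Over both muscles the same 3 ran from -0.75 to 0.028, -0.19 to 0.45 and -0.67 to 0.26. The difference between the muscles ran from -0.72 to 0.91 for Tnni1 and -1.25 to 0.66 for Tpm3 1449997_at. Tnni1 in triceps was 0.56 with a floor of 5 and 0.48 without the 3 arrays, and over both muscles 0.13 and 0.062. Tpm3 1449997_at in triceps was 0.70 with the floor and 0.31 without the 3 arrays, and over both muscles 0.18 with the floor. After quantile normalization the difference between the muscles was 0.17 for Tnni1. The cause of these changes was not tested.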

Other observations

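Sln, which encodes sarcolipin, a regulator of the calcium pump of the sarcoplasmic reticulum, was too dim for the test and is on the list of denervation markers. It was at 6.10, 7.92, 8.49 and 7.24 in the gastrocnemius of SOD1-G93A mice, 7.40, 7.75, 6.84 and 7.30 in the gastrocnemius of NTg mice, 2.32, 4.28, 3.34 and 4.69 in the triceps of SOD1-G93A mice and 4.24, 4.97, 3.27 and 1.02 in the triceps of NTg mice. All gastrocnemius arrays lay above all triceps arrays, and the genotypes overlapped in each muscle. It was named after its values were seen.

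Mbp was lowest of the gastrocnemius arrays in SOD1-G93A replicate 4, at 7.07, where the other 7 lay between 8.69 and 9.33. The slow sarcomere genes were not low on that array, with a mean of 11.08.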
